A study of Mus musculus with 16 samples.

Results

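The hair shaft grows inside a cylinder of keratinised cells, the inner root sheath, which moulds the shaft and is wrapped by the companion layer, a single layer of cells against the outer root sheath. Keratin filaments are built from pairs of an acidic type I and a basic type II chain, so a sheath cell has to make both. Krt25, Krt26, Krt27 and Krt28 are the type I chains of the inner root sheath, Krt71, Krt72 and Krt73 are type II chains of the same layer, and Krt75 is the type II keratin by which the companion layer is known. In human follicles KRT25, KRT27, KRT28 and KRT71 are found in every layer of the sheath, while KRT26, KRT72 and KRT73 belong to its cuticle. The sheath is made by follicles in anagen, the growth phase, and is lost as a follicle regresses.

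These 8 keratins were taken from the expression table of mouse skin by their gene symbols. Each was read by 1 probe set, so 8 of the 45101 probe sets of the table are described, and all 8 passed the filter on dim probe sets that left 25563 for testing. Dorsal skin came from iK5-TERT mice (K5tTA-tetop-TERT) at day 60, which the labels place in anagen. A Tert transgene is switched on in them by a transactivator under the keratin-5 promoter. By the study this promoter is active in basal epidermis and in the outer root sheath, including the bulge where follicle stem cells reside. Both cohorts had doxycycline in the drinking water until postnatal day 10 to 21, which kept the transgene silent during development. TERT-off mice were then injected with doxycycline (8 µg/g body weight), which withdraws TERT. TERT-on mice received no doxycycline injection, and by the methods of the study they were injected with PBS instead. Biopsies of 3 cm2 were taken at 0, 6, 12 and 24 h, with 2 arrays in each of the 8 groups and 16 in all. Arrays of a cohort that share a replicate number were taken as serial biopsies of 1 mouse, which gives 4 mice. For the TERT-off biopsies of 0 h the labels give an injection, whereas the methods of the study place them before the injection. Expression is given as intensity, the authors' model-based value per probe set on a linear scale. Since probe sets differ in their brightness, levels are compared between arrays and never between genes.

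The inner root sheath genes lie side by side by type. In the reference gene order of GRCm38.p6, Krt25, Krt26, Krt27 and Krt28 follow each other on chromosome 11 with 0 protein-coding genes between neighbours, and Krt71, Krt72 and Krt73 do so on chromosome 15. Krt75 stands apart from Krt71 by 4 protein-coding genes, among them Krt5, Krt6a and Krt6b. All 8 are transcribed from the minus strand. Their RefSeq promoters (GRCm38.p6) are shown from 50 bases before to 10 bases after the annotated start, because the intensities of the genes ran in parallel and this is where transcription begins. Letters run 5′ to 3′ along the gene, and capitals mark TATAAA on the strand of the gene.
Krt25 (chr11:99322942-99323001, minus strand): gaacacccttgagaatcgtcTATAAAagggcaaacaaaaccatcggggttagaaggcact
Krt26 (chr11:99337956-99338015, minus strand): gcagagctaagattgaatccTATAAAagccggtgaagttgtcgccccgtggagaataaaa
Krt27 (chr11:99351109-99351168, minus strand): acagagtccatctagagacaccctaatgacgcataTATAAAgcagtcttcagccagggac
Krt28 (chr11:99374894-99374953, minus strand): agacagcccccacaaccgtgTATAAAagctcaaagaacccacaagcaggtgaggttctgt
Krt71 (chr15:101743088-101743147, minus strand): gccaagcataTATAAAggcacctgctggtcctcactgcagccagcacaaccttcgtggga
Krt72 (chr15:101786511-101786570, minus strand): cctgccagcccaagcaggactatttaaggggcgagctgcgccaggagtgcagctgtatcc
Krt73 (chr15:101802351-101802410, minus strand): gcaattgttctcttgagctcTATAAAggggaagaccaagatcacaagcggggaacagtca
Krt75 (chr15:101573895-101573954, minus strand): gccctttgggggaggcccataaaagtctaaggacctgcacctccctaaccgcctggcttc

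A TATAAA on the strand of the gene, starting 45 to 11 bases before the annotated start, stood in 6 of the 8 promoters and in 2.54% of 27025 RefSeq promoters of the same length of 300 bases. Krt72 and Krt75 lacked these letters there. The 4 type I promoters also shared a block of 11 letters, 8 of them identical, that a search of the 4 sequences for their best common window returned. It is printed with 12 bases on each side and the block in capitals.
Krt25 (chr11:99323047-99323081, minus strand): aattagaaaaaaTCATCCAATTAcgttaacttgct
Krt26 (chr11:99338049-99338083, minus strand): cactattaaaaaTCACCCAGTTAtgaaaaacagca
Krt27 (chr11:99351202-99351236, minus strand): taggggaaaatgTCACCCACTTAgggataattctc
Krt28 (chr11:99375004-99375038, minus strand): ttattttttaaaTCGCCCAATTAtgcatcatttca

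The shared letters, TCNNCCANTTA, were found on either strand in 0.659% of the 27025 promoters and in none of the 4 type II members. The block was chosen for being shared, so that share is a description. The same search over Krt71, Krt72 and Krt73 returned NAAAANGNNTT, with 7 identical letters, found in 5.09% of the promoters. The letters AGATAA or TGATAA, which factors of the GATA family can bind, stood on either strand in 4 of the 8 (Krt25, Krt27, Krt71 and Krt73) and in 18.9% of all promoters. ACAAAG or TCAAAG, which TCF/LEF factors can bind, stood in 2 of the 8 (Krt25 and Krt28) and in 31.3% of all promoters.

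All 16 arrays had medians of 32.9 to 36.3, and none duplicated another. The 0 h biopsy of TERT-on replicate 1 had a ratio of 5′ to 3′ Gapdh signal of 0.0599, against 0.977 to 1.12 on the others. It enters the comparisons at 0 h and the changes from 0 h. Among the TERT-off mice the keratins differed from the start. At 0 h replicate 1 held 0.790% (Krt26) to 6.15% (Krt73) of the mean TERT-on level of 6 to 24 h, while replicate 2 held 72.5% (Krt75) to 103% (Krt26). For these markers the 0 h biopsy of TERT-off replicate 1 thus goes against the label of anagen. In pieces of skin, fewer sheath cells and less keratin mRNA per cell cannot be told apart.

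Type I sheath keratins were high on every array of TERT-on skin. Krt25 stood at 5677, 6798, 6282 and 4963 at 0, 6, 12 and 24 h in TERT-on replicate 1 and at 4371, 6717, 7175 and 7177 in TERT-on replicate 2. In TERT-off replicate 1 it was 166 at 0 h and 46.9, 45.0 and 235 thereafter. TERT-off replicate 2 began at 5760 and 5038, within the range of the TERT-on arrays, and was 567 at 12 h and 309 at 24 h. Krt25, whose mutation gives mice a wavy coat, was therefore low throughout in the first TERT-off mouse, and in the second it was high up to 6 h and low from 12 h.

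Krt26 is a chain of the sheath cuticle. Its intensities were 1234, 2037, 1233 and 780.5 in TERT-on replicate 1 and 681, 1710.5, 1791 and 1959 in TERT-on replicate 2, in order of time. TERT-off replicate 1 gave 11.9, 12.5, 6.85 and 13.8, of which the third lies under the floor of 7.71 used for the tests. In TERT-off replicate 2 Krt26 was 1553 and 1556 at 0 and 6 h and 55.3 and 20.3 at 12 and 24 h, that is 28.2-fold lower at 12 h than at 6 h.

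Krt27 had 4136, 5169.5, 4692 and 3433 in TERT-on replicate 1 and 3390.0, 4928, 5032 and 5277 in TERT-on replicate 2. The TERT-off mice had 84.0, 12.4, 12.2 and 107 in replicate 1 and 4323, 3261, 406 and 186 in replicate 2. Its 6 TERT-off arrays from 6 h on all lay below the 6 TERT-on arrays of those times, with the nearest pair at 3261 and 3433. Krt28 stood at 1576, 2803, 1985 and 1629.9 in TERT-on replicate 1 and at 1234, 2245, 2461 and 2729.9 in TERT-on replicate 2. It was 116, 17.4, 17.3 and 53.9 in TERT-off replicate 1 and 1738, 1712, 129.5 and 71.4 in replicate 2. Krt28 at 6 h in TERT-off replicate 2 (1712) was above the TERT-on array of 24 h of replicate 1 (1629.9), so the cohorts overlapped on that array. Krt25, Krt26, Krt71, Krt72 and Krt73 overlapped too. Like Krt28, each had 5 of its 6 TERT-off arrays from 6 h on below all TERT-on arrays of those times. The share of all probe sets separated over 6 to 24 h in the manner of Krt27 was not determined.

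**Figure D1:**
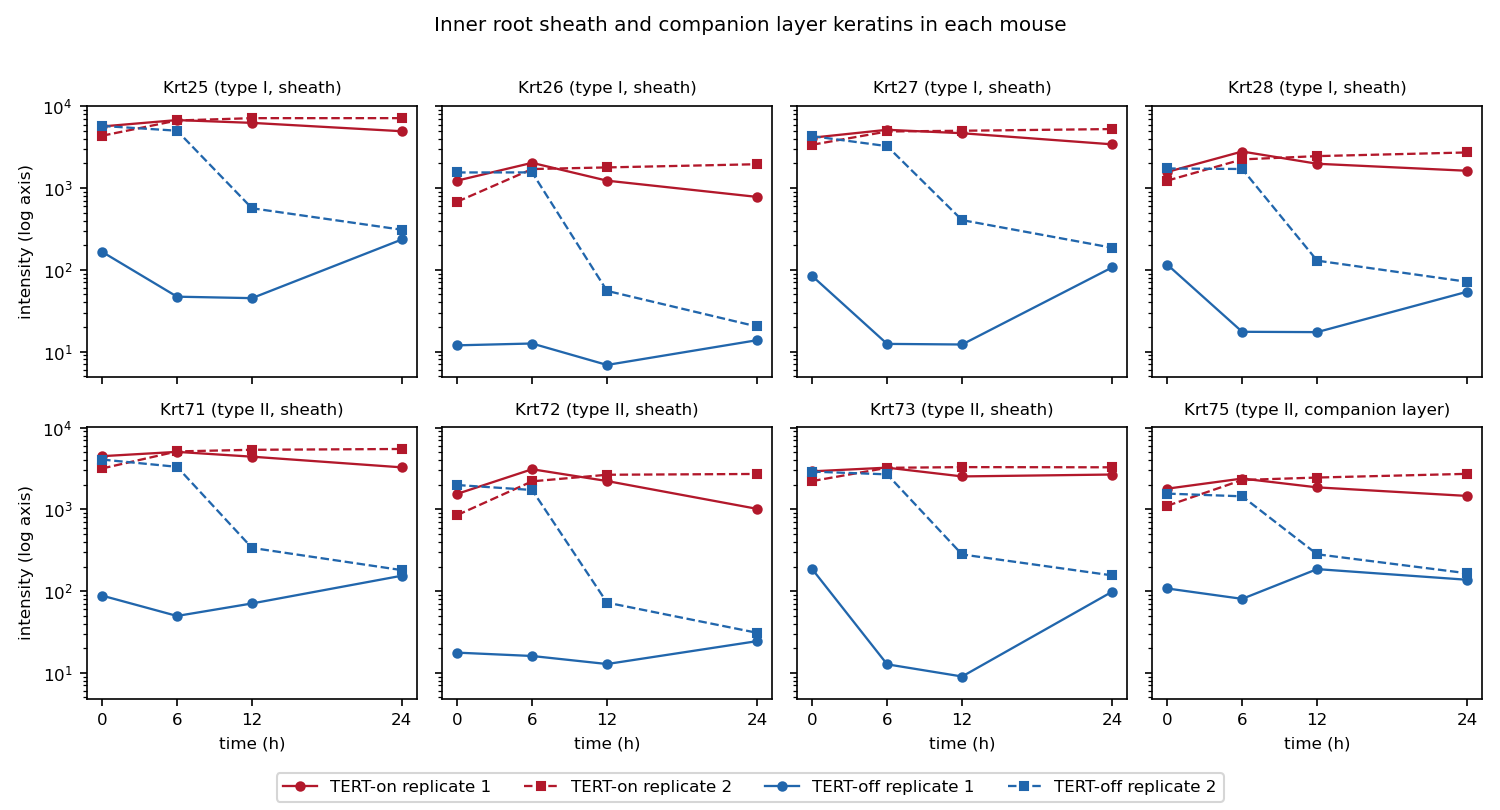
Intensity (log axis) of the 8 keratins against time in hours, 1 panel per gene and 1 line per mouse, with 1 array per point. TERT-on mice (red) stay between 681 and 7177, TERT-off replicate 1 (blue, solid) stays between 6.85 and 235, and TERT-off replicate 2 (blue, dashed) lies lower at 12 h than at 6 h in every panel.

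The type II sheath keratins followed the same course. Krt71, the type II chain whose mutation curls the coat of the caracul mouse, gave 4478, 5055, 4415 and 3267 in TERT-on replicate 1 and 3166, 5120.1, 5360.0 and 5483 in TERT-on replicate 2. In TERT-off replicate 1 it was 88.1, 49.7, 70.6 and 154, and in TERT-off replicate 2 it was 4071, 3317, 338 and 181. By 24 h the TERT-off mice were close to each other, 154 and 181, although they had started far apart.

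Krt72, a cuticle chain, was 1547, 3099, 2222 and 1016 in TERT-on replicate 1 and 852, 2204, 2653 and 2713 in TERT-on replicate 2. The TERT-off values were 17.7, 16.1, 12.8 and 24.4 in replicate 1 and 1986, 1727, 72.3 and 30.9 in replicate 2. Krt72 was 23.9-fold lower at 12 h than at 6 h in TERT-off replicate 2, next to the 28.2-fold of Krt26. Krt73, the third cuticle chain, was the steadiest in TERT-on skin, with 2923, 3240.5, 2531 and 2669 in replicate 1 and 2220.4, 3226, 3289.7 and 3273 in replicate 2. TERT-off replicate 1 gave 186, 12.7, 9.02 and 98.0, and TERT-off replicate 2 gave 2897, 2683, 281 and 156. In TERT-off replicate 1 Krt73 thus started at 6.15% of the TERT-on mean, was 14.6-fold lower at 6 h than at 0 h and was 10.9-fold higher at 24 h than at 12 h. Its 12.7 at 6 h and 9.02 at 12 h lie near the floor of 7.71, so these folds are imprecise. All 7 sheath genes were higher at 24 h than at 12 h in TERT-off replicate 1, by 1.90-fold (Krt72) to 10.9-fold (Krt73). Krt75 at 24 h was 0.741 times its level of 12 h in that mouse.

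Krt75 of the companion layer was low on the same arrays. It was 1792, 2384, 1859 and 1461 in TERT-on replicate 1 and 1107, 2289, 2452 and 2722 in TERT-on replicate 2. In the TERT-off cohort it was 108, 80.4, 186 and 138 in replicate 1 and 1560, 1445, 282 and 165 in replicate 2. From 6 h on the 6 TERT-off arrays lay below the 6 TERT-on arrays, as for Krt27 alone of the sheath genes, with 1445 and 1461 as the nearest pair.

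Between cohorts, the 8 keratins all stood lower from 6 to 24 h where TERT had been withdrawn, with 6 arrays of 2 mice on each side. In a limma fit with the mouse as a random block, 8 of 8 passed an adjusted p of 0.05, against 10.8% of all 25563 probe sets called lower and 15.1% called higher. The log2 differences of intensity were −4.55 (standard error 1.11) for Krt25, −5.37 (1.27) for Krt26, −5.22 (1.33) for Krt27 and −4.83 (1.00) for Krt28. For the type II genes they were −4.43 (1.04) for Krt71, −5.40 (1.23) for Krt72, −4.85 (1.21) for Krt73 and −3.24 (0.72) for Krt75. Adjusted p-values from limma ran from 0.00777 (Krt28) to 0.0162 (Krt27). As folds, TERT-off skin was 9.45-fold lower in Krt75 and 21.5-fold (Krt71) to 42.3-fold (Krt72) lower in the sheath genes. The median over the 8 was −4.84, beside a median of 0.04 over all genes tested.

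These calls rest on few animals. The fit uses a correlation of 0.0728 between arrays of a mouse for all probe sets, a low value for keratins as unlike between the TERT-off mice as these, so the p-values may be too small. With 1 mean per mouse, 6 of 8 passed, without Krt27 and Krt73 (adjusted p of 0.0184 to 0.0578 in limma). Of all probe sets 8.45% were then called lower. The fits with a mouse left out had no mouse block. A mouse left out leaves its cohort with 1 mouse, whose serial biopsies then count as separate replicates assumed to vary like the others. What passes there does not measure a spread between mice. Without TERT-on replicate 1 or TERT-on replicate 2, 0 passed, and of all probe sets 8.25% and 0.765% were then called in either direction. In both fits the log2 differences of the 8 lay between −5.64 and −3.03. Without TERT-off replicate 1, the mouse that was low from the start, the log2 differences ran from −3.81 (Krt72) to −2.40 (Krt75). Without TERT-off replicate 2 they ran from −7.54 (Krt27) to −4.08 (Krt75). An exact permutation test of 2 mice against 2 cannot give a two-sided p below 0.333.

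At single times each difference compares 2 arrays with 2. With a mouse left out 1 array stands alone on its side and is assumed to vary like the other groups. The values below without a TERT-off mouse are therefore no replicated difference. At 0 h the differences ran from −2.75 (Krt26) to −1.64 (Krt28), all 8 below zero, and 0 passed in limma (adjusted p of 0.694 to 0.823), as against 0.00391% of all probe sets called lower. None of the 8 had an unadjusted p under 0.05 there, beside 2084 of the 25563 probe sets. The cohorts overlapped in all 8. Without the TERT-on array of low Gapdh ratio the values at 0 h were −2.47 to −1.39. Without TERT-off replicate 1 they turned to between 0.11 (Krt71) and 0.79 (Krt72). The remaining TERT-off mouse was thus above the TERT-on mean of 0 h. Without TERT-off replicate 2 the values at 0 h rested on 1 TERT-off array and were −6.27 (Krt26) to −3.59 (Krt28).

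At 6 h the differences were −4.65 (Krt27) to −2.78 (Krt75). Both TERT-off arrays lay below both TERT-on arrays for 8 of 8 keratins, as they did for 21.7% of all probe sets. The test passed 0 of 8 (0.434% of probe sets called lower), with adjusted p-values from 0.196 to 0.306 in limma. An unadjusted p under 0.05 was reached by 2 of 8 keratins and by 5602 of the 25563 probe sets. That count does not set the keratins apart at 6 h. Nearly all of this difference came from TERT-off replicate 1. Without that mouse the values were between −0.69 and −0.26, and in TERT-off replicate 2 the 8 genes still held 67.2% (Krt75) to 103% (Krt26) of the TERT-on mean. Without TERT-off replicate 2 the values at 6 h rested on 1 TERT-off array and were −8.67 to −4.86.

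By 12 h both TERT-off mice were low. The TERT-off arrays lay below the TERT-on arrays for 8 of 8, compared with 29.0% of probe sets, and the differences reached −6.32 (Krt72) to −3.22 (Krt75). In limma 0 of 8 passed (0.591% of probe sets called lower), with adjusted p-values of 0.0734 to 0.113. All 8 had an unadjusted p under 0.05, as had 6823 of the 25563 probe sets. TERT-off replicate 2 held 3.30% (Krt72) to 13.1% (Krt75) of the TERT-on mean at this time. Without TERT-off replicate 1 the log2 differences at 12 h rested on 1 TERT-off array and were −5.07 to −2.92. Without TERT-off replicate 2 they were −8.64 to −3.52.

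The differences at 24 h were −6.21 (Krt26) to −3.72 (Krt75). Again the TERT-off arrays lay below the TERT-on arrays for 8 of 8 (27.2% of probe sets). In limma 0 passed (0.419% called lower), with adjusted p-values from 0.110 to 0.233. An unadjusted p under 0.05 was found for 8 of 8 and for 5011 of the 25563 probe sets. The TERT-off mice now stood near each other, at 0.912% to 6.40% of the TERT-on mean in replicate 1 and 1.34% to 7.69% in replicate 2. By this share Krt26 was the lowest and Krt75 the highest of the 8 in each mouse. Without TERT-off replicate 1 the values at 24 h rested on 1 TERT-off array and were −5.93 to −3.59. Without TERT-off replicate 2 they were −6.49 to −3.86.

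**Figure D2:**
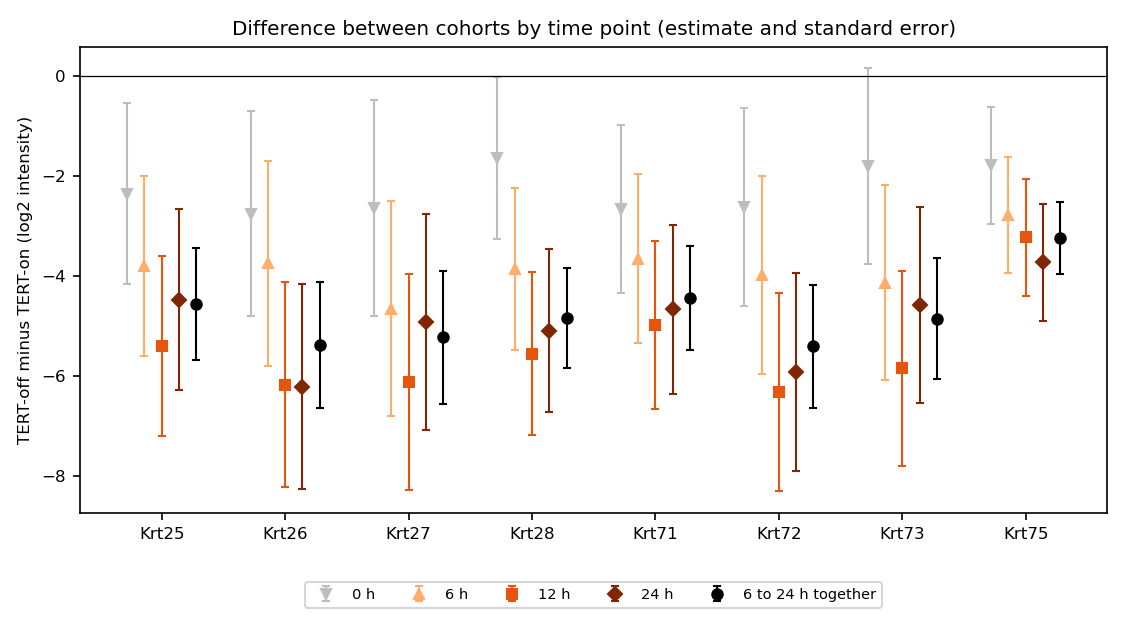
Difference of TERT-off minus TERT-on in log2 intensity for each keratin at 0, 6, 12 and 24 h and over 6 to 24 h together, with standard errors from the limma fit. All points lie below 0, from −1.64 at 0 h to −6.32 at 12 h, and the bars are shortest where 3 times are averaged.

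Changes within a cohort compare the later biopsies of the mice with those of 0 h. With the low correlation of 0.0728 the fit treats them nearly as unpaired, so its p-values may be too large here. In TERT-off skin the mean of 6 to 24 h minus 0 h was −2.81 (Krt73) to −0.85 (Krt75) on the log2 scale. In limma 0 of 8 passed (0.156% of probe sets called lower), 0 had an unadjusted p under 0.05, and the lowest adjusted p was 0.341. With the random block, 4322 of the 25563 probe sets had an unadjusted p under 0.05 for this change. In a fit that gave every mouse its own level, chosen after seeing the data, 0 of 8 passed (lowest adjusted p 0.198 in limma). That fit called 0.102% of probe sets lower. There 3 of 8 had an unadjusted p under 0.05, but the share of all probe sets that did so was not determined. The mice differed in this change. In TERT-off replicate 2 it was −3.69 (Krt26) to −1.94 (Krt75), with Krt72 at −3.66 and the other 5 between −2.79 and −2.57. In TERT-off replicate 1, already low, it was −3.05 in Krt73, −2.19 in Krt28, −1.73 in Krt27 and −1.07 in Krt25, while Krt26, Krt71 and Krt72 were at −0.11 to −0.04 and Krt75 at 0.24. With 1 TERT-off mouse left, the spread comes from the other groups, so a count past the threshold shows no replicated change. Without TERT-off replicate 2, Krt75 turned to 0.24.

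In TERT-on skin the same change was 0.25 (Krt73) to 0.93 (Krt72), above zero in all 8, and 0 passed (0.133% of probe sets called lower, 0.0391% called higher; lowest adjusted p 0.745 in limma, 0 at an unadjusted p under 0.05). It came mostly from TERT-on replicate 2, where the later arrays were above that of 0 h by 0.56 (Krt73) to 1.56 (Krt72) on the log2 scale. In TERT-on replicate 1 the values were −0.10 (Krt71) to 0.40 (Krt28). Subtracting the TERT-on from the TERT-off change gave differences that ran from −3.19 (Krt28) to −1.46 (Krt75). These passed the test for 0 of 8 and for 0% of all probe sets in the lower direction, with a lowest adjusted p of 0.447 for a keratin and 0 of 8 at an unadjusted p under 0.05. With the random block, 3422 of the 25563 probe sets had an unadjusted p under 0.05 for this difference. A fit that gave every mouse its own level passed 0 of 8 (lowest adjusted p 0.320 in limma) and 0% of all probe sets. There 2 of 8 had an unadjusted p under 0.05, and the share of all probe sets was again not determined. Without TERT-off replicate 1 the differences ran from −4.60 to −2.55, and without TERT-off replicate 2 from −3.30 to −0.37.

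Type I and type II chains of the sheath kept step. To compare them, each gene was set against its own mean on the 6 TERT-on arrays from 6 h on, in log2 units, and the 4 type I and 3 type II departures were averaged per array. On the 8 TERT-on arrays the averages differed by −0.09 to 0.04. In TERT-off replicate 2 the type I average went through −0.16, −0.31, −3.99 and −5.06 over the 4 times, and the type II average through −0.14, −0.34, −4.05 and −5.04. The type I average of TERT-off replicate 1 was −5.59, −7.40, −7.60 and −5.60, beside −5.57, −7.18, −7.29 and −5.46 for type II. Over 6 to 24 h the cohort differences averaged −5.00 for the type I and −4.89 for the type II sheath chains. This gap of types was below the gap between the mice of the cohort, and it was not tested.

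Krt75, the only companion layer keratin of the 8, differed more from the sheath genes. Its lowest intensity, 80.4, was above the lowest of each sheath gene, 6.85 to 49.7. The part that probe set background has in this was not tested. On the TERT-on arrays Krt75 departed from the mean of the 7 sheath genes by −0.18 to 0.11. In TERT-off replicate 2, Krt75 was 0.31 and 0.25 below them at 0 and 6 h, then 1.09 and 1.35 above them at 12 and 24 h. In TERT-off replicate 1 it lay above them by 1.26, 2.57, 3.93 and 1.58 at the 4 times. On 5 of the 6 TERT-off arrays from 6 h on, Krt75 had departed less than each of the 7 sheath genes; the exception was TERT-off replicate 2 at 6 h. The 95% intervals of the difference over 6 to 24 h were −4.82 to −1.67 for Krt75 and −8.08 to −2.73 for Krt72. Both genes were read on the same arrays, so the overlap of these intervals cannot test the gap between genes. That gap was not tested, and a smaller difference in Krt75 is a description of these mice.

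**Figure D3:**
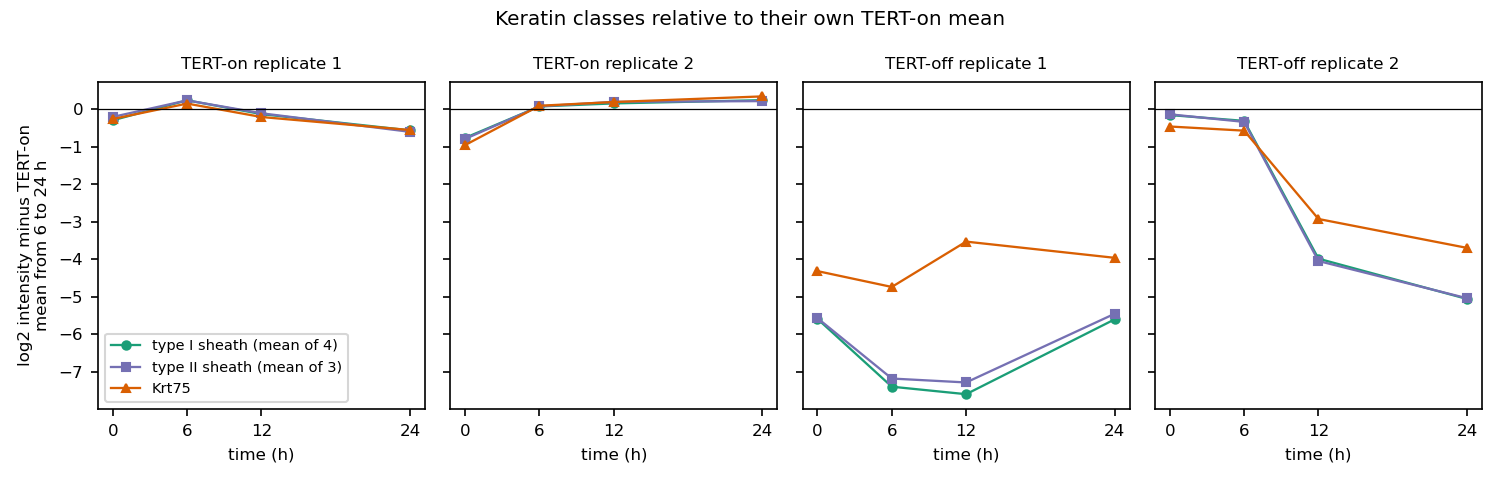
Departure in log2 intensity from each gene's own TERT-on mean of 6 to 24 h, averaged over the 4 type I and the 3 type II sheath keratins and shown for Krt75, against time in hours, 1 panel per mouse. The type I and type II lines lie on each other in 3 panels and within 0.31 in TERT-off replicate 1, while Krt75 lies above both in TERT-off replicate 1 and from 12 h in replicate 2.

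Within the sheath, Krt26 and Krt72 varied most even in TERT-on skin. The highest of the 8 TERT-on arrays was 3.64-fold above the lowest for Krt72 and 2.99-fold for Krt26, beside 2.27-fold for Krt28, 1.73-fold for Krt71, 1.64-fold for Krt25, 1.56-fold for Krt27 and 1.48-fold for Krt73. The low arrays were the 0 h biopsy of TERT-on replicate 2 and the 24 h biopsy of TERT-on replicate 1, on which Krt26 and Krt72 averaged −1.26 and −1.03 and the other 5 sheath genes −0.59 and −0.40. In both TERT-on mice all 8 keratins were higher at 6 h than at 0 h, 1.11-fold (Krt73) to 2.00-fold (Krt72) in replicate 1 and 1.45-fold (Krt73) to 2.59-fold (Krt72) in replicate 2. From 6 to 24 h they parted. At 24 h TERT-on replicate 1 was 1.21-fold (Krt73) to 3.05-fold (Krt72) lower than at 6 h, and TERT-on replicate 2 was higher by 1.01-fold (Krt73) to 1.23-fold (Krt72). In TERT-off replicate 2 Krt26 and Krt72 led again between 6 and 12 h, with values lower by 28.2-fold for Krt26 and 23.9-fold for Krt72 against 5.12-fold (Krt75) to 13.2-fold (Krt28) for the others. Krt73, though a cuticle chain as well, was 9.55-fold lower there. At 24 h the 8 were lower again than at 12 h, by 1.71-fold (Krt75) to 2.73-fold (Krt26).

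Other genes of the inner root sheath, listed apart from the keratins, were lower in part. Of 9 genes tested of 10 listed, 6 passed as lower and 0 as higher over 6 to 24 h, with a median of −1.12. The largest differences were in Padi3 (−5.48, standard error 1.25, adjusted p = 0.0106 in limma) and Padi1 (−3.94, 0.80, adjusted p = 0.00737), enzymes that convert arginine to citrulline, and in their substrate trichohyalin, Tchh (−4.62, 1.25, adjusted p = 0.0206), which fills sheath cells and ties their filaments. Tgm3, a transglutaminase that crosslinks trichohyalin, was at −2.30 (0.56, adjusted p = 0.0142). Cux1 and Tgm1 passed with smaller values. Gata3, a transcription factor needed to form the sheath, was at −0.26 (0.09, adjusted p = 0.0522) and passed at 24 h alone (−0.64, adjusted p = 0.0491), with no value on the 0 h array of TERT-on replicate 1. Cdsn and Cst6 were at −0.52 and −0.07 and did not pass. Keratinocytes of the epidermis also use several genes of this list, Tgm1, Tgm3, Padi1, Cdsn and Cst6 among them, so it does not mark the sheath alone.

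Keratins of the companion layer and outer root sheath other than Krt75 stood on either side of zero, depending on the time. At 6 h 5 of 5 were below zero with a median of −1.19, 0 passed in limma and 2 had an unadjusted p under 0.05. At 24 h the median was 0.92. Of 5 tested, 1 passed as lower over 6 to 24 h, Krt17 of the outer root sheath (−0.91, standard error 0.20, adjusted p = 0.00859 in limma), and the median was 0.09. Krt6a, which pairs in the companion layer as well as in stressed epidermis, was at −0.69 (adjusted p = 0.127) over 6 to 24 h and at −1.70 (adjusted p = 0.0781) at 12 h. Krt6b was at −1.51 (adjusted p = 0.346) at 6 h, at 3.40 (adjusted p = 0.0757) at 24 h and at 0.94 (adjusted p = 0.230) over 6 to 24 h. Krt16, known for its rise in wounded epidermis, passed as higher at 24 h (3.04, adjusted p = 0.0294) and stood at 0.47 (adjusted p = 0.362) over 6 to 24 h. Basal keratinocyte genes (Krt5, Krt14, Krt15) and interfollicular suprabasal genes (Krt1, Krt10, Krt77, Lor) had 0 of 3 and 0 of 4 past the threshold of limma in either direction over 6 to 24 h, and 1 of 3 (Krt15, higher) and 0 of 4 at an unadjusted p under 0.05. Krt5, whose promoter drives the transactivator, was at −0.14 and Krt15 at 0.48.

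Hair shaft keratins were lower as well. Of 11 tested, 10 passed as lower over 6 to 24 h, with a median of −4.84, led by Krt33a at −5.94 and Krt31 at −5.62 of the cortex. The exception was Krt84 (−2.60, adjusted p = 0.121 in limma). Their summed intensity over 6 to 24 h was 6357 to 29875 on TERT-on arrays, and 255 to 22800 on TERT-off arrays with a median of 526. Melanocyte genes (Tyr, Tyrp1, Dct, Pmel) were lower in 4 of 4, with sums of 2039 to 5821 against 515 to 4113. Neutrophil genes were higher in 3 of 3, S100a9 by 3.27, and their sums were 430.2 to 1055 in TERT-on and 1093 to 9300 in TERT-off skin, with 1 TERT-off value missing. These 3 genes were above zero at 0 h already, Il1b by 0.87, S100a8 by 1.94 and S100a9 by 2.71, and 0 passed in limma. Their difference of the changes from 0 h between cohorts was 0.19 to 0.56, and 0 passed. Muscle genes were higher in 2 of 4 (Mylpf by 0.90, Tnnt3 by 0.73), with sums of 8734 to 16167 against 10371 to 19091, and adipocyte genes in 1 of 2 (Adipoq by 0.66), with sums of 5129 to 6160 against 6224 to 8758. The table holds no value under 1, so a listing at 0 could not occur. The part that a changed mixture of cells has in the keratin differences was not tested.

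**Figure D4:**
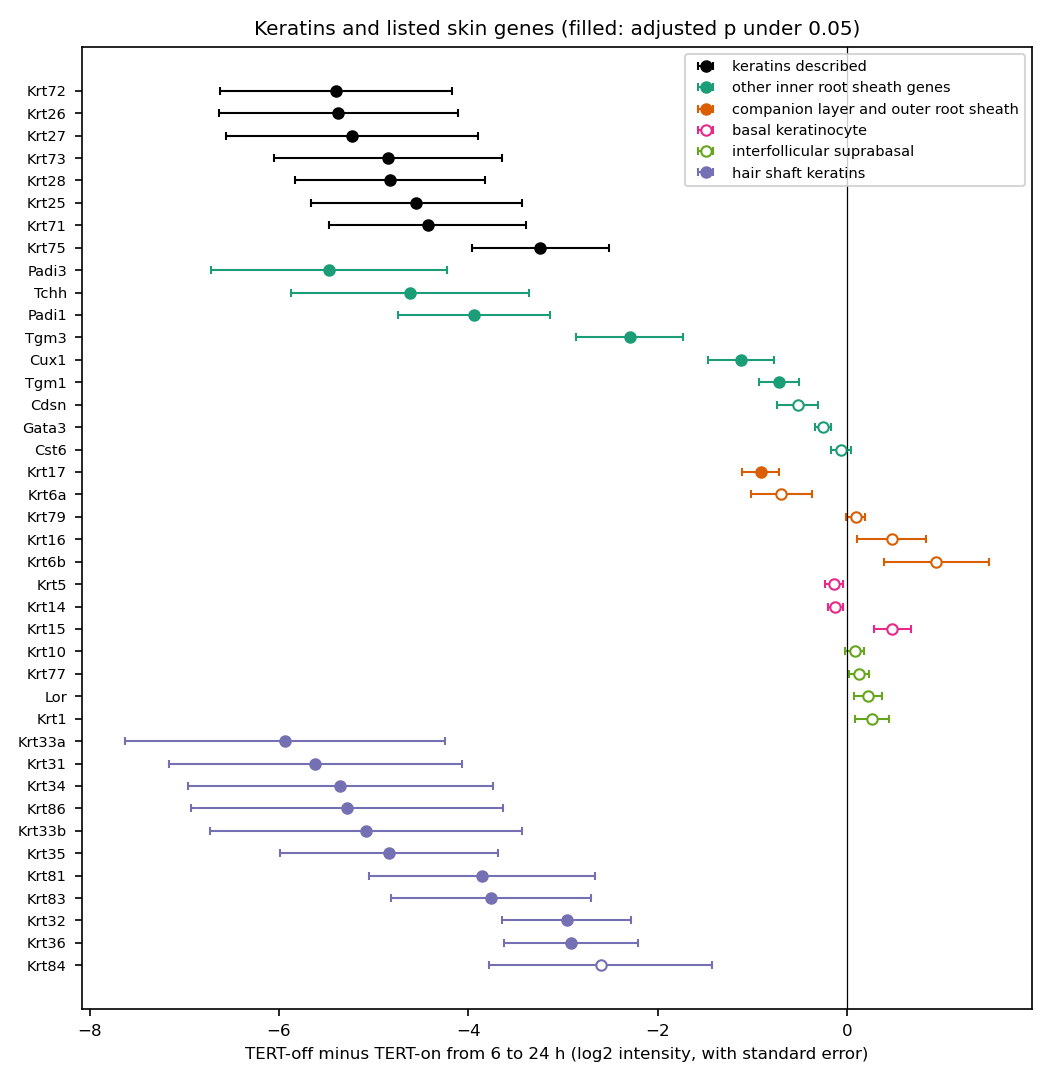
Difference of TERT-off minus TERT-on over 6 to 24 h in log2 intensity, with standard error, for the 8 keratins and for listed genes of the sheath, companion layer and outer root sheath, epidermis and hair shaft. Filled points have an adjusted p under 0.05; the sheath and shaft keratins lie left of −2, from −5.94 to −2.60, and the basal and suprabasal genes between −0.14 and 0.48.

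Across the 16 arrays the keratins ran nearly in parallel, with Pearson r of log2 intensity between pairs of the 8 from 0.918 to 0.998. These arrays come from 4 mice and hold 2 states, high and low, so r mostly reflects which arrays were low. The genes most like the mean of the 7 sheath keratins were S100a3 of the hair cuticle (r = 0.997), Padi3 (0.996), the hair keratin Krt35 (0.990), Tchh (0.989) and Prr9 (0.988). Krt75 was most like Capn8 (0.989), a calpain protease, followed by Lrrc75b (0.985), Cryba4 (0.983), Padi3 (0.982) and Ly6g6d (0.981). Over 6 to 24 h these 9 genes had log2 differences from −5.87 (S100a3) to −2.03 (Lrrc75b). They were picked for their likeness to the keratins, so these values are a description.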

How the data were processed

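RNA of 16 skin biopsies (Affymetrix arrays, 1 colour) was read as intensity values that the authors deposited on a linear scale, after invariant-set normalization and a perfect-match minus mismatch model in dChip. The genome build behind them is not given in the sources used here. Log2 was taken with a floor at the table's 20th percentile (7.71). The tests used probe sets that exceeded the overall median (34.4) on at least 2 arrays and had a value in every group (25563, covering 12580 genes). The comparisons came from limma 3.58.1 in R 4.3.3 with statmod 1.5.0: 8 group means, mouse as a random block, an intensity trend, two-sided tests, Benjamini-Hochberg adjustment over all probe sets, threshold 0.05. The fit was also run on simulated data drawn with the same mouse correlation of 0.0728. That run cannot show whether the p-values of these keratins are too small. The number of arrays limits the precision, and p-values measure the spread between these biopsies. The 8 members, the lists, the tests and the named genes (every member, up to 4 genes of each list by size of difference, and the 5 most like each profile) were chosen with earlier results of these data known. The brightest probe set stood for a listed gene. Alternatives covered floor, filter, normalization, mouse or replicate block, trend and each mouse left out, the last without a mouse block. Motifs were sought in RefSeq promoters, of which all 8 members had an entry. Figures were drawn with matplotlib 3.10.9.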

Additional observations from a re-analysis of the deposited data

How the results depend on the processing

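Over 6 to 24 h the 8 keratins stayed lower under every setting tried, with 6 to 8 past the threshold except where a TERT-on mouse was left out (range over mice left out 0 to 8). With no filter on dim probe sets, 6 passed, beside 4.85% of probe sets called lower. Krt27 at an adjusted p of 0.0554 and Krt73 at 0.0513 in limma did not. Another floor, a stricter filter, median centring, quantile normalization, no mouse block, no intensity trend and the fit without the TERT-on array of low Gapdh ratio left 8. At single times the count of 0 rose without a TERT-off mouse: the range over mice left out was 0 to 8 at 0, 6, 12 and 24 h, 0 to 5 for the change in TERT-off mice and 0 to 4 for the difference of changes. The replicate block, with the number shared by both cohorts as a term, moved the count at 12 h to 1 (Krt28, adjusted p = 0.0463 in limma). It changed no other count, and at 12 h it called 2.15% of probe sets lower. Same-numbered arrays deviated together with r of −0.05, −0.12, 0.11 and 0.08 at 0, 6, 12 and 24 h, so the numbers were not taken as pairs. The mouse as a fixed term, an alternative chosen after seeing the data, left the counts for the changes from 0 h at 0.

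Signs turned only with a mouse left out. At 0 h the range over mice left out, from TERT-off replicate 2 to TERT-off replicate 1, was −4.91 to 0.21 for Krt25, −6.27 to 0.76 for Krt26, −5.48 to 0.21 for Krt27, −3.59 to 0.32 for Krt28, −5.42 to 0.11 for Krt71, −6.02 to 0.79 for Krt72, −3.78 to 0.19 for Krt73 and −3.71 to 0.15 for Krt75. The change in TERT-off mice ranged from −1.94 without replicate 1 to 0.24 without replicate 2 for Krt75. The change in TERT-on mice ranged from −0.10 without replicate 2 to 0.75 without replicate 1 for Krt71, and from −0.063 to 0.56 for Krt73. The cause was not tested, beyond the values of the single mice given above. Over all keratins, comparisons and settings, 861 values kept direction and side of the threshold, 60 came to pass, 20 no longer passed and 11 turned. A second probe set per gene could not be tried, since each keratin has 1. Signal limits the low end: Krt26 lay under the floor on 1 array. In TERT-off replicate 1 the lowest values of Krt27 (12.2), Krt28 (17.3), Krt72 (12.8) and Krt73 (9.02) also lay below the table's median of 34.4. Folds that rest on them are imprecise.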
